A study of Mus musculus with 6 samples.

Results

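The mitochondrial ribosomal protein genes were taken as every row with a symbol beginning Mrpl or Mrps followed by a digit, and their values were summed by gene identifier. This gave 77 genes, 48 of them named for the large subunit and 29 for the small subunit, among the 13931 genes and 24647 transcripts listed. They were compared between alveolar epithelial type 2 (AT2) cell preparations from the lungs of C57BL/6 mice given PBS repeatedly and mice given bleomycin repeatedly (1 U/kg). Bleomycin is a DNA-damaging drug used to injure the mouse lung, and AT2 cells secrete surfactant and serve as progenitors of the alveolar lining. The PBS group, titled sham, and the bleomycin group, titled mBLM, held 3 libraries each, and the series design assigns 3 mice to each group. All mice carried the same strain label, with no engineered allele or second agent named. The labels do not state the age or sex of the mice, how the cells were purified, or the spacing and route of exposure. Values are FPKM, which scale fragments by transcript length and by library size, so levels can be set side by side between genes. Sequencing depth is not known from these files, and fold changes below are on the log2(FPKM + 1) scale, bleomycin minus PBS.

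The mitochondrial ribosome makes the few proteins that mitochondrial DNA encodes, which are core subunits of the respiratory chain and ATP synthase. Its RNA is made inside the organelle, whereas all of its proteins are encoded in the nucleus, made in the cytosol and imported. The small subunit holds the decoding centre and the large subunit joins amino acids and feeds the chain to the inner membrane. Some members descend from bacterial ribosomal proteins and others exist only in mitochondria. AT2 cells are rich in mitochondria and spend much energy on surfactant lipid synthesis. Symbols do not always match place: Mrps30 and Mrps18a sit in the large subunit, and Mrps36 is not counted as a structural ribosomal protein.

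The promoters of these genes are known for sites of NRF1, of GABP (an ETS-family factor) and of YY1, which link many nuclear genes of mitochondrial function. RefSeq windows (GRCm38.p6) running from 250 bases before to 50 after the transcription start were matched for 68 of the 77 genes. Each motif was searched on both strands, and a palindromic stretch can match on each. The windows below are a selection, shown because they belong to members that the results turn on. Capitals mark the matched letters, and each is written 5′ to 3′ on the strand of the gene.
Mrpl9, NRF1 motif, chr3:94443297-94443326, plus strand: gaggcgcagctGCGCATGCgcggggtcctt
Mrpl33, NRF1 motif, chr5:31613928-31613957, plus strand: taccggaacccGCGCATGCcccggaagtag
Mrps22, ETS motif, chr9:98601672-98601701, minus strand: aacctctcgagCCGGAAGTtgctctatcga
Mrpl52, ETS motif, chr14:54426899-54426928, plus strand: gggccacgcccACTTCCGGttcccttgctc
Mrpl11, YY1 motif, chr19:4962315-4962344, plus strand: acctctgacccAAAATGGCcgcgcccagag
Mrpl36, YY1 motif, chr13:73330968-73330997, plus strand: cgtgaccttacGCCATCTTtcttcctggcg
Mrpl49, YY1 motif, chr19:6057721-6057750, minus strand: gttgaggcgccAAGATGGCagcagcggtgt
Mrps18a, YY1 motif, chr17:46111004-46111033, plus strand: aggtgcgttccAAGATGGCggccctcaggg
Mrps30, YY1 motif, chr13:118387219-118387248, minus strand: cgcggcgggcgAAAATGGCggcggccaggt

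The NRF1 motif GCGCATGC (GCATGCGC on the other strand) lay in 8 of the 68 member windows (11.8%), against 3.05% of 27025 genes with a window and 5.49% of the 10597 genes that the files also list. For the ETS motif CCGGAAGT (ACTTCCGG) the count was 12 (17.6%), against 4.31% and 8.28%. The YY1 motif AANATGGC (GCCATNTT) lay in 20 (29.4%), against 6.96% and 9.26%. In 15 of those 20 a match began after the transcription start, which was the case for 22.1% of member windows, against 2.45% of all windows and 4.54% of those of listed genes. In 10 of these 15 the letters ATG inside the match were an annotated start codon of the gene in GENCODE release M21, as in Mrps18a, Mrps30 and Mrpl49. At least 1 of the motifs was found in 34 members and more than 1 in 6. These are letter matches only.

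The members were expressed at moderate levels in every library. Their summed FPKM was 1078, 913.3 and 990.4 in PBS libraries 1 to 3 and 1026, 1084 and 1020 in bleomycin libraries 1 to 3. The groups overlapped, and the members took between 0.3489% and 0.4118% of the listed FPKM in each library. The median listed member stood at 10.1 FPKM in PBS and 10.7 in bleomycin, above the median of all listed genes (5.93 and 6.77). For comparison, the median nuclear-encoded respiratory chain gene stood at 46.3 and 51.1 FPKM, and the median cytosolic ribosomal protein gene at 245 and 330.

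Members of one complex nevertheless differed widely in level. In PBS the highest means were 57.0 ± 3.68 FPKM (SD, n = 3) for Mrpl52, 41.5 ± 24.5 for Mrps21, 39.1 ± 0.899 for Mrpl33, 38.6 ± 4.53 for Mrpl24 and 33.9 ± 1.48 for Mrpl30. The spread of Mrps21 came from library 3, which held 69.8 FPKM beside 27.9 and 26.7, and bleomycin library 3 was likewise above its group at 56.9 beside 32.4 and 28.0. Lowest in PBS were Mrpl36 (0.848 ± 0.922), Mrps25 (1.41 ± 0.898), Mrpl19 (2.12 ± 0.861), Mrpl16 (2.30 ± 0.397) and Mrpl17 (2.92 ± 0.345). Neighbours in this order lie within their spread of each other, whereas Mrpl52 and Mrpl17 are far apart in all 6 libraries. Most members lay close to the line of equal means in the plot of group means.

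**Figure D1:**
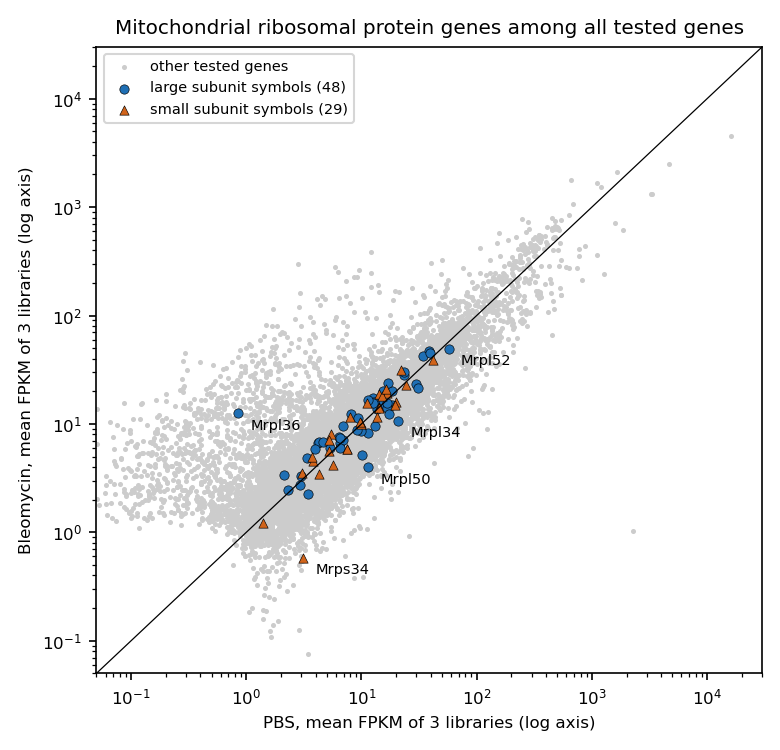
Mean FPKM of 3 PBS libraries (x axis, log scale) against mean FPKM of 3 bleomycin libraries (y axis, log scale) for the 77 members, coloured by subunit symbol, over the other tested genes in grey. The line marks equal means, and genes with a mean under 0.05 FPKM in either group are not drawn. Mrpl36 lies far above the line, and Mrpl34, Mrpl50 and Mrps34 lie below it.

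No mitochondrial ribosomal protein gene passed the test between bleomycin and PBS. Of the 77 members, 75 were tested by limma and 0 had an adjusted p under 0.05 in either direction. Over all 12326 tested genes, 22.5% passed, 15.2% higher and 7.34% lower with bleomycin. At an unadjusted p under 0.05 there were 9 members, 8 higher and 1 lower, against 36.8% of all genes. The groups did not overlap for 11 members (9 higher and 2 lower, 14.7%), against 43.6% of all genes. The members' changes were smaller at the median: the median absolute log2 change was 0.29, against 0.43 over all genes, with near-equal median standard errors of 0.22 and 0.23. A change of at least 1 in either direction was estimated for 3 members (4.0%), against 19.1% of all genes. The 95% interval lay wholly between -1 and 1 for 50 of the 75 (66.7%), against 45.1% of all genes. For the other 25 tested members a change of 1 in at least one direction was not excluded. A missed threshold does not show that a member was at the same level in both groups.

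The median log2 change of the members was 0.09, equal to that of all tested genes, with 44 members above 0 and 31 below. The equality held for the fit on all libraries: with single libraries left out the members' median ran from 0.03 (without PBS library 2) to 0.19 (without PBS library 1), where that of all genes was 0.08 and 0.12. It was 0.14 and 0.11 without PBS library 3, 0.13 and 0.06 without bleomycin library 1, 0.05 and 0.06 without bleomycin library 2, and 0.16 and 0.06 without bleomycin library 3. With library weights the medians were 0.17 and 0.10. Scaling the libraries to equal medians, which shifts all genes alike, moved them to -0.06 for the members and -0.07 for all genes. Taken instead as the median log2 level of each library, all genes differed by 0.17 between groups and the members by 0.02. That gap of -0.15 is smaller than its pooled SD of 0.181.

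**Figure D2:**
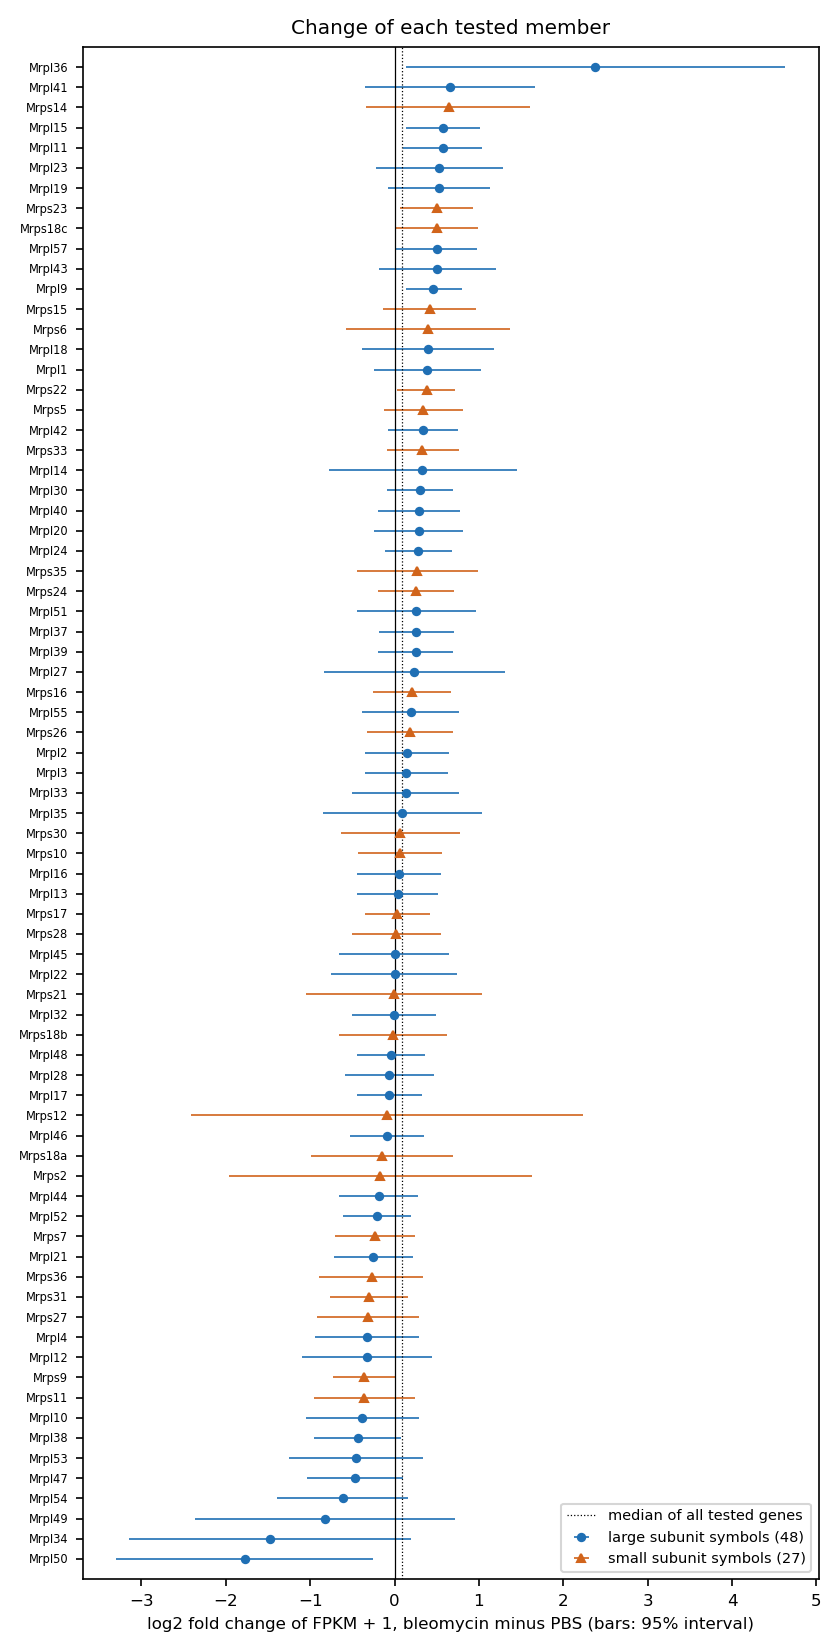
log2 fold change of FPKM + 1, bleomycin minus PBS, with its 95% interval from limma (x axis) for each of the 75 tested members (y axis, ordered by change), large subunit symbols in blue and small in orange. The changes are centred near 0.09, the dotted median of all genes, and widen at both ends with Mrpl36 at 2.38 and Mrpl50 at -1.77.

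Large and small subunits were set against each other next. Among members named for the large subunit, 48 were tested, with 28 above 0, 20 below and a median log2 change of 0.14. Among those named for the small subunit, 27 were tested, with 16 above, 11 below and a median of 0.06. Changes ranged from -1.77 to 2.38 in the large subunit and from -0.36 to 0.64 in the small subunit, and all 3 members past a change of 1 carry large subunit symbols. The groups did not overlap for 7 large (14.6%) and 4 small (14.8%) subunit members. With Mrps30 and Mrps18a counted in the large subunit and Mrps36 left out, the medians were 0.11 for 50 large and 0.12 for 24 small subunit members. The order of the medians therefore depends on whether symbol or structure assigns those genes. The medians by symbol moved with single libraries: that of the large subunit was 0.023 without PBS library 2 and 0.026 without bleomycin library 2. That of the small subunit was 0.282 without bleomycin library 3, 0.215 and 0.146 without PBS libraries 1 and 3, 0.126 without bleomycin library 1, 0.033 without PBS library 2 and 0.259 with library weights. By symbol, the large minus small difference of 0.075 fell to 0.006 without bleomycin library 1 and turned negative when any other single library was left out: -0.048, -0.01 and -0.009 without PBS libraries 1, 2 and 3, and -0.056 and -0.14 without bleomycin libraries 2 and 3.

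The levels of the subunits did not separate the groups either. Summed FPKM of the large subunit was 715.1, 626.3 and 630.8 in PBS and 675.1, 723.0 and 668.9 in bleomycin. For the small subunit it was 362.5, 287.0 and 359.6 in PBS and 351.3, 360.6 and 351.6 in bleomycin. Each subunit's sums overlapped. The median log2 level of the large subunit minus that of the small subunit was -0.13, 0.24 and -0.19 in PBS (mean -0.03 ± 0.23, SD, n = 3) and -0.25, -0.24 and 0.01 in bleomycin (-0.16 ± 0.14). These values overlap, and the difference between groups of -0.14 is smaller than their pooled SD of 0.194. By structure the means were 0.10 ± 0.21 and 0.01 ± 0.10.

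Members with a bacterial counterpart were also set beside members specific to mitochondria. The 46 conserved members, all tested, had a median log2 change of 0.14, with 30 above 0 and 16 below. The 28 tested mitochondria-specific members of 30 had a median of 0.03, with 14 on each side. Neither class held a member past the test. Taken as the median log2 level of each library, the conserved class differed between groups by 0.05 and the mitochondria-specific class by -0.01. Both are smaller than their pooled SD, 0.237 and 0.162.

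The member nearest the threshold was Mrpl9 (chr3:94443325-94448708, plus strand), a conserved large subunit protein whose NRF1 motif is printed above. It held 16.9, 16.3 and 17.6 FPKM in PBS and 26.0, 22.9 and 22.4 in bleomycin. Every bleomycin library was above every PBS library. The log2 change was 0.46 ± 0.14 (SE) with a limma adjusted p of 0.0555. Mrpl15 (chr1:4773206-4785739, minus strand), a conserved large subunit protein, held 3.70, 5.11 and 4.03 FPKM in PBS and 5.94, 7.49 and 7.05 in bleomycin. The groups again did not overlap, and the change was 0.57 ± 0.18 (adjusted p = 0.0673). With weights for library quality, both passed, Mrpl9 at an adjusted p of 0.0431 and Mrpl15 at 0.0424.

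Mrpl11 (chr19:4962306-4966995, plus strand) lies at the base of the stalk that recruits translation factors, and its YY1 motif is printed above. Its values were 3.89, 3.53 and 5.23 FPKM in PBS and 7.50, 5.78 and 6.79 in bleomycin, again without overlap, for a change of 0.57 ± 0.20 (adjusted p = 0.0828). Its partners in the stalk did not share that pattern. Mrpl10, the stalk protein that carries the Mrpl12 copies, held 10.1, 16.7 and 7.60 FPKM in PBS and 7.39, 8.77 and 8.34 in bleomycin. For Mrpl12 the values were 20.5, 19.4 and 15.0 and then 8.43, 20.4 and 16.3. Both overlapped between groups, with changes of -0.38 ± 0.28 and -0.33 ± 0.32.

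Of the small subunit, Mrps22 (chr9:98588730-98601660, minus strand), a mitochondria-specific protein with an ETS motif at its start, had the tightest values. They were 5.23, 5.08 and 5.30 FPKM in PBS and 7.22, 6.94 and 7.01 in bleomycin, a change of 0.38 ± 0.14 (adjusted p = 0.109). The gap between groups was wider than the range within either. Mrps23, also mitochondria-specific, held 6.90, 8.86 and 8.18 FPKM in PBS and 13.7, 11.5 and 9.87 in bleomycin (change 0.50 ± 0.18, adjusted p = 0.10). Mrps18c, the conserved one of the 3 genes of the Mrps18 family, held 24.2, 17.5 and 24.9 FPKM and then 37.9, 27.2 and 30.2 (change 0.50 ± 0.20, adjusted p = 0.13). Its relatives in the ribosome did not separate the groups: Mrps18a, at 17.5, 27.4 and 28.9 and then 12.8, 26.2 and 29.4 FPKM, had a change of -0.15 ± 0.35. Mrps18b held 12.7, 8.07 and 9.13 and then 7.37, 13.6 and 8.93 FPKM, a change of -0.02 ± 0.27.

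Further members whose bleomycin libraries all stood above the PBS libraries were Mrpl57 (change 0.50 ± 0.20), Mrpl19 (0.53 ± 0.25) and Mrpl30 (0.30 ± 0.16), with adjusted p of 0.128, 0.184 and 0.233 from limma. Lower in every bleomycin library, besides Mrpl50, was Mrps9 (chr1:42851233-42905682, plus strand), a conserved protein of the small subunit head. It held 21.4, 17.4 and 20.0 FPKM in PBS and 16.7, 13.9 and 14.6 in bleomycin, a change of -0.36 ± 0.16 (adjusted p = 0.145). With libraries scaled to equal medians Mrps9 passed, at -0.54 with an adjusted p of 0.0439, and it was the sole member to do so under that scaling.

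Around the exit of the nascent chain tunnel, Mrpl24 changed by 0.28 ± 0.17, Mrpl22 by -0.00 ± 0.31, Mrpl47 by -0.47 ± 0.24 and Mrpl45, which tethers the ribosome to the inner membrane, by -0.00 ± 0.27, none past the test. Mrpl23, also at the exit, held 20.0, 9.01 and 8.72 FPKM in PBS and 18.3, 17.2 and 16.5 in bleomycin (change 0.53 ± 0.31, adjusted p = 0.272). PBS library 1 stood with the bleomycin libraries, and without it the change was 0.89 with an adjusted p of 0.0175. That fit is singled out because the library stood apart. Leaving out any other library gave a limma adjusted p from 0.359 to 0.531. Of the members with the largest estimates, Mrpl41 held 15.9, 13.4 and 4.51 FPKM in PBS and 17.3, 18.2 and 14.1 in bleomycin (0.66 ± 0.42). Mrps14 held 2.00, 6.48 and 7.80 and then 9.09, 7.87 and 7.30 FPKM (0.64 ± 0.41). In both a single low PBS library lay under overlapping values.

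The 3 largest estimates came from genes whose libraries parted within the bleomycin group. Mrpl36 (chr13:73331009-73332175, plus strand), a small zinc-binding protein of the large subunit, held 0.294, 0.338 and 1.91 FPKM in PBS and 0.873, 19.0 and 18.0 in bleomycin. Bleomycin library 1 lay among the PBS libraries, and the other two were far above. The change was 2.38 ± 0.94 (adjusted p = 0.118), and without bleomycin library 1 it was 3.51 with an adjusted p of 0.00839. Without PBS library 1 or 2 the limma adjusted p was 0.246 or 0.238. With any other library left out Mrpl36 fell below the filter. Mrpl34 (chr8:71464926-71465752, plus strand), another small conserved large subunit protein, held 20.6, 21.9 and 20.3 FPKM in PBS and 25.4, 3.81 and 2.84 in bleomycin. Bleomycin library 1 again stood with the PBS group, here as the highest of all 6. The change was -1.48 ± 0.70 (adjusted p = 0.178), and without bleomycin library 1 it was -2.35 with an adjusted p of 0.00283. Leaving out any other library gave Mrpl34 a limma adjusted p from 0.285 to 0.389.

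For Mrpl50 (chr4:49512596-49521093, minus strand), a mitochondria-specific protein, the library apart was another. Values were 10.5, 11.3 and 12.6 FPKM in PBS and 0.798, 9.73 and 1.48 in bleomycin, so library 2 was just under the PBS range and libraries 1 and 3 far under it. The change was -1.77 ± 0.64 (adjusted p = 0.093), and without bleomycin library 2 it was -2.56 with an adjusted p of 0.00345. Leaving out any other library gave Mrpl50 a limma adjusted p from 0.172 to 0.246. Mrpl54, likewise mitochondria-specific, held 34.9, 29.3 and 28.9 FPKM in PBS and 16.9, 33.7 and 13.7 in bleomycin. Its change of -0.61 ± 0.32 (adjusted p = 0.223) became -0.98 with an adjusted p of 0.0409 without bleomycin library 2. Leaving out any other library gave Mrpl54 a limma adjusted p from 0.309 to 0.472. For Mrpl34, Mrpl36, Mrpl50 and Mrpl54 the fit singled out drops the library that stood apart, which lowers the p by itself. None of these 4 patterns was tested against a technical origin, and each file value of Mrpl34, Mrpl36, Mrpl50 and Mrpl54 comes from 1 listed transcript.

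Other members parted in both groups. Mrps12, a protein of the decoding centre, held 21.9, 2.92 and 17.7 FPKM in PBS and 21.9, 18.7 and 2.07 in bleomycin, so each group had a single low library. Mrps2 held 7.37, 4.82 and 0.614 and then 4.39, 0.647 and 5.28 FPKM, with the same shape. Mrpl49 held 14.6, 12.5 and 3.05 and then 2.73, 2.77 and 10.0 FPKM. Their changes of -0.09 ± 0.97, -0.17 ± 0.75 and -0.82 ± 0.64 had wide intervals. The 2 members below the filter of 1 FPKM in 3 libraries were Mrps34, at 0, 9.15 and 0.182 FPKM in PBS and 0.662, 1.08 and 0 in bleomycin, and Mrps25, at 2.44, 0.979 and 0.804 and then 0.709, 0.733 and 2.20. Mrps34 was listed above 2 FPKM in PBS library 2 alone.

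**Figure D3:**
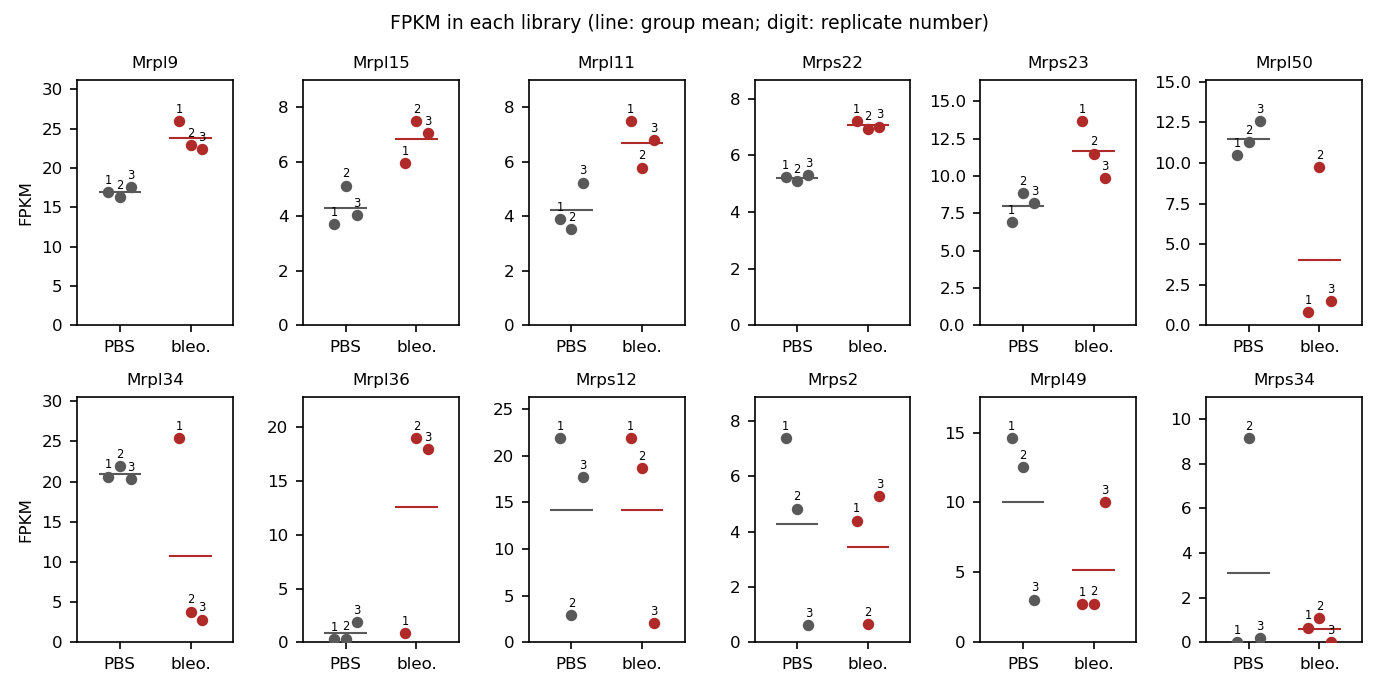
FPKM (y axis, from 0, own scale in each panel) of 12 members in each PBS (grey) and bleomycin (red) library, with the group mean as a line and the replicate number beside each point. Mrpl9, Mrpl15, Mrpl11, Mrps22 and Mrps23 separate the groups without overlap, whereas Mrpl50, Mrpl34, Mrpl36, Mrps12, Mrps2, Mrpl49 and Mrps34 have libraries far apart within a group.

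Wide spread within a group was also found among other genes. Of members with a mean of at least 5 FPKM, the highest library was 5 or more times the lowest for 1 of 60 in PBS (1.67%) and 3 of 63 in bleomycin (4.76%), against 3.65% and 3.37% of all genes. That cut leaves out Mrps34, Mrps2 (highest over lowest 12.0 in PBS and 8.16 in bleomycin) and, in bleomycin, Mrpl50 (12.2). Values of genes beside Mrpl36, Mrpl34 and Mrps12 on the chromosome are given as a description. Those members were named because their libraries parted, so a neighbour that varies less is no evidence about them. Ndufs6, a respiratory chain subunit gene next to Mrpl36, held 53.6, 44.6 and 52.0 FPKM in PBS and 48.3, 32.1 and 29.8 in bleomycin. Abhd8, next to Mrpl34, held 10.1, 8.27 and 10.1 and then 14.0, 14.7 and 13.1 FPKM. In bleomycin libraries 2 and 3, Mrpl36 was high and Ndufs6 lower than in library 1, while Abhd8 was level across the 3. Sars2, beside Mrps12, held 2.85, 1.67 and 2.11 and then 3.76, 2.40 and 4.65 FPKM.

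Most members were represented by few transcripts: 52 by 1 and 25 by several, 124 in all. Members with 1 listed transcript had a median log2 change of 0.06, those with several 0.15. When each transcript was tested by itself, a choice made after seeing the data, 2 of 100 tested member transcripts passed, against 14.8% of all 17759 tested transcripts. Mrpl52-004 fell from 16.5, 13.5 and 14.5 FPKM in PBS to 5.95, 9.73 and 8.07 in bleomycin (log2 change -0.84 ± 0.22, limma adjusted p = 0.0484). The main transcript of that gene, Mrpl52-001, held 36.4, 44.6 and 45.5 and then 34.9, 46.4 and 43.4 FPKM, overlapping between groups. Mrpl30-003 rose from 0.163, 0.411 and 0.524 to 1.34, 1.30 and 1.15 FPKM (0.74 ± 0.19, adjusted p = 0.0494), a small share of a gene at 33.9 FPKM in PBS. Mrpl30-003 met the filter of 1 FPKM through the bleomycin libraries alone, so only a rise could have been called. Transcripts of a gene share sequence, so their split is an estimate.

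Few other genes of the mitochondrial translation machinery passed the test. Of the 6 ribosomal subunits with other kinds of symbol, 0 passed, with a median log2 change of 0.08. They include Dap3, a GTP-binding protein of the small subunit (11.1, 14.4 and 13.5 FPKM in PBS and 14.2, 14.1 and 9.40 in bleomycin), Ptcd3, an RNA-binding small subunit protein (7.64, 8.22 and 5.06 and then 7.19, 8.82 and 5.09), and Gadd45gip1 of the large subunit (6.41, 2.52 and 4.97 and then 6.05, 6.54 and 4.73). All overlapped between groups. Of 28 tested ribosome assembly genes, 1 rose and 0 fell: Mrm1, which methylates the large ribosomal RNA, rose from 1.93, 1.08 and 1.44 FPKM to 3.15, 2.79 and 3.19 (0.72 ± 0.19, adjusted p = 0.0377).

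Of 18 tested genes listed as translation factors, 2 rose and 0 fell, with a median of 0.10. Tufm, the elongation factor that brings aminoacyl-tRNA to the mitochondrial ribosome, rose from 10.9, 10.7 and 9.03 FPKM to 15.2, 19.1 and 15.1 (0.64 ± 0.17, adjusted p = 0.0377). Mss51, a gene at low level whose part in mouse mitochondrial translation was not examined, rose from 0.384, 0.61 and 0.368 to 1.12, 1.50 and 1.35 FPKM (0.68 ± 0.16, adjusted p = 0.0281). Mss51 met the filter of 1 FPKM through the bleomycin libraries alone, so only a rise could have been called. Of 20 tested tRNA synthetase and amidotransferase genes, 0 rose and 1 fell, Vars2, which charges the mitochondrial valine tRNA (10.4, 7.54 and 7.10 FPKM to 5.27, 2.76 and 2.40, -1.10 ± 0.28, adjusted p = 0.0363). Of 19 tested genes that replicate, transcribe or process mitochondrial nucleic acids, 0 passed, Tfam included (change 0.35 ± 0.23). With single libraries left out, the call was lost in 6 of 6 fits for Tufm (changes from 0.53 to 0.69), in 5 of 6 for Vars2 (-1.37 to -0.93), in 5 of 6 for Mrm1 (0.60 to 0.84) and in all 3 fits that kept Mss51 above the filter (0.64 to 0.75). Quantile normalization ended the calls of Mss51 (0.19, adjusted p = 0.439), Mrm1 (0.44, adjusted p = 0.118) and Tufm (0.51, adjusted p = 0.0712), and with a pseudocount of 5 the change was 0.21 for Mss51, 0.31 for Mrm1 and -0.66 for Vars2. Equal medians also ended those of Tufm (0.46, adjusted p = 0.0938) and Mrm1 (0.59, adjusted p = 0.0593), as did the top transcript alone (adjusted p of 0.0924 and 0.0506). With a pseudocount of 0.1 Mss51 stood at 1.38. The replicate number as a block ended the calls of Tufm (adjusted p = 0.0759), Mrm1 (0.0746) and Mss51 (0.0715). Every one of these lists held a share of calls below the 22.5% of all genes.

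Regulators of mitochondrial gene expression had a higher median, 0.40 over 14 tested, of which 2 rose and 0 fell. The 2 that rose are 14.3% of the list, near the 15.2% of all genes that rose. By estimate, 12 of the 14 were above 0 and 2 below. Myc, a growth regulator that binds many ribosome and mitochondrial genes, rose from 4.36, 8.30 and 3.53 FPKM to 27.0, 22.7 and 21.1 (2.01 ± 0.29, adjusted p = 0.00424). Ppargc1b, a coactivator of mitochondrial biogenesis, rose from 0.383, 0.45 and 0.396 to 1.15, 1.49 and 1.24 FPKM (0.70 ± 0.15, adjusted p = 0.0196), a call lost in all 3 fits that kept it above the filter with a library left out (0.68 to 0.72). Ppargc1b, too, met the filter through the bleomycin libraries alone, so only a rise could have been called. Its change was 0.19 with quantile normalization (adjusted p = 0.407), 0.22 with a pseudocount of 5 and 1.44 with 0.1, so its size depends on these settings, and the replicate block ended the call (adjusted p = 0.0668). The factors of the motifs printed above did not pass: Nrf1 changed by 0.40 ± 0.15, Gabpa by 0.39 ± 0.18 and Yy1 by 0.37 ± 0.22, with adjusted p of 0.114, 0.165 and 0.265. Ppargc1a, the better known coactivator, held 1.11, 1.29 and 1.76 and then 1.10, 2.14 and 1.32 FPKM. Atf5 was lower in every bleomycin library than in any PBS library, without passing. It held 85.5, 61.4 and 69.5 FPKM in PBS and 20.1, 37.8 and 51.0 in bleomycin (-1.05 ± 0.34, limma adjusted p = 0.0704).

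The nuclear-encoded respiratory chain and ATP synthase subunits, whose partners the mitochondrial ribosome makes, had a median log2 change of -0.03 over 77 tested, with 0 higher and 3 lower. These 3 calls are 3.9% of the list, below the 22.5% of all genes that passed and the 7.34% that passed as lower. All 3 are cytochrome c oxidase subunits. Cox6a1 fell from 179, 142 and 139 FPKM to 76.1, 75.9 and 38.3 (-1.32 ± 0.30, adjusted p = 0.0233). Cox6a2 fell from 33.9, 18.4 and 31.9 to 8.82, 11.3 and 4.89 FPKM (-1.66 ± 0.35, adjusted p = 0.018). Cox6b2 fell from 32.5, 24.5 and 36.1 to 11.4, 16.6 and 20.9 FPKM (-0.91 ± 0.26, adjusted p = 0.0481). These calls were not stable when single libraries were left out: of 6 such fits, the call was lost in 5 for Cox6a1 (changes from -1.48 to -0.99), in 3 for Cox6a2 (-1.93 to -1.36) and in 5 for Cox6b2 (-1.10 to -0.69). The replicate block ended those of Cox6a2 (adjusted p = 0.0554) and Cox6b2 (0.0682), and Cox6b2 also missed the threshold with equal sums (0.0645), no trend (0.052), a pseudocount of 0.1 (0.0517) and no filter (0.0511).

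The cytosolic ribosome was looked at beside the mitochondrial one. Of 90 tested genes with cytosolic ribosomal protein symbols, 6 of which are pseudogene symbols, 11 rose and 1 fell. These calls are 13.3% of the list, below the 22.5% of all genes, and the 11 are 12.2%, against 15.2% of all genes. None of the 6 pseudogene symbols passed. The median log2 change was 0.51 beside 0.09 for the mitochondrial members. The groups did not overlap for 56.7% of them, against 43.6% of all genes and 14.7% of the members. Rps15a rose from 41.6, 40.4 and 34.8 FPKM to 101, 77.6 and 71.7 (1.07 ± 0.18, adjusted p = 0.00825), Rpl22 by 0.91 ± 0.16 and Rpl13 by 0.88 ± 0.18. With single libraries left out, the call of Rpl22 was lost in 1 of 6 fits (changes from 0.81 to 1.03) and that of Rpl13 in 4 (0.79 to 0.96). The one that fell was Rps13 (-1.27 ± 0.27, adjusted p = 0.0184), named after its values were seen. Many of these genes have near-identical copies elsewhere in the genome, so their values are uncertain. The difference between the lists is given as a description and was not tested.

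**Figure D4:**
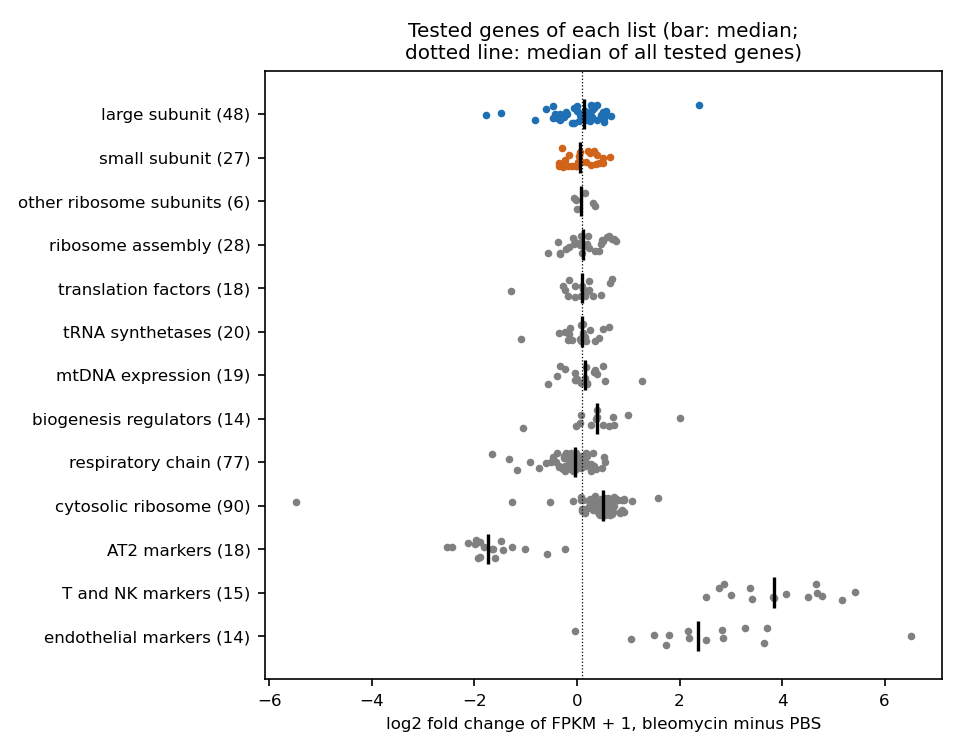
log2 fold change of FPKM + 1, bleomycin minus PBS (x axis), of each tested gene in 13 lists (y axis, number tested in brackets), with each list's median as a bar and the median of all tested genes as a dotted line. Both subunits centre near the dotted line, cytosolic ribosomal proteins centre at 0.51, and the markers of AT2, T and NK and endothelial cells lie far to either side.

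Marker RNA of several cell types in the preparations moved with bleomycin. Of 18 tested AT2 markers 14 fell, and their summed level went from between 20412 and 29552 FPKM in PBS to between 4596 and 11809 in bleomycin. Cebpa, an AT2 transcription factor, was listed at 0 in all PBS libraries. All 15 T and NK cell markers rose (sum from 5.79 to 13.8 FPKM in PBS and from 343 to 603 in bleomycin), as did all 9 B and plasma cell markers, all 7 tested neutrophil markers, 10 of 13 macrophage and monocyte markers and 12 of 14 endothelial markers. Endothelial markers summed to between 69.3 and 107 FPKM in PBS, where Cldn5 was listed at 0, and to between 393 and 718 in bleomycin. Cycling genes rose for 5 of 10, while 4 of 12 fibroblast and smooth muscle markers fell. In such bulk samples fewer AT2 cells and less RNA per cell cannot be told apart. The members' levels are those of a mixture whose make-up was not measured, and the part of the mixture in them was not tested. Of the mitochondrial genome itself the files list mt-Co1 alone, at 6846 FPKM in PBS library 1 and 14.5 and 14.3 in the other two, and at 0.98, 1.26 and 0.831 in bleomycin. Its values do not follow the members' sums, and products of the mitochondrial ribosome were not measured.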

How the data were processed

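RNA was sequenced from 6 AT2 preparations, 3 per group, with total RNA isolated by TRIzol and a KAPA stranded kit, per the labels' protocols. The authors deposited one FPKM value per transcript and library, per the file headers. HISAT2, StringTie, FastQC 0.10.1 and the build mm10 are named per the submitters' processing notes, and their settings and annotation were not stated there. FPKM were summed by gene ID. Groups and replicate numbers came from sample titles. The test on log2(FPKM + 1) took every gene that reached 1 FPKM in 3 or more of the 6 libraries. It used limma 3.58.1 (R 4.3.3) with the group as its term and a trended eBayes prior, two-sided, with Benjamini-Hochberg adjustment over 12326 genes and a threshold of 0.05. An exact permutation test of 3 against 3 cannot go below 0.1. At most 17.9% of low values fell within 0.05 of a whole step, so reads could not be recovered and depth is unknown. An exact 0 can be a failed estimate.

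The members and lists were chosen with earlier results of these data known. Lists are described by counts and medians, with no test. Listed symbols that were not matched include Mtrfr, Mtres1, Mars2, Trbc1, Trbc2 and Ighm. Named members were the 5 largest and 5 smallest changes, the 5 highest and 5 lowest PBS means, those below the filter, Mrps30, Mrps18a and Mrps36. Of each other list, up to 3 genes that passed were named, by smallest adjusted p. Others were named for their role or after their values were seen. Replicate numbers did not pair the libraries: the same-number correlations of deviations were -0.004, 0.017 and 0.039. On simulated data for this comparison, with 200 of 12326 genes changed, limma recovered 0% of those changed by 1 on the log2 scale and 78.5% of those changed by 2. Far fewer genes changed there than the 22.5% that passed in the data, so the Benjamini-Hochberg cut was stricter in the simulation. In the data themselves changes under 1 passed, such as Rpl22 at 0.91 and Tufm at 0.64. The simulated shares therefore do not give the power of this comparison. The p-values measure the spread between these libraries. Promoter windows are RefSeq sequences on GRCm38.p6. Alternatives covered pseudocount, filter, scaling, transcript choice, variance model, library weights, a replicate block and each library left out.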

Additional observations from a re-analysis of the deposited data

How the results depend on the processing

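The depth behind each FPKM value is unknown, and 3 libraries a group limit what could be shown. No member passed with another pseudocount or filter, with equal sums, quantile normalization or the top transcript, or with no trend in the variance (8 members at an unadjusted p under 0.05, against 9). With libraries scaled to equal medians 1 member was lower, and the large subunit median was -0.04. With library weights 2 members were higher, and the large minus small difference was -0.131. With each transcript tested, 1 was higher, having met the filter through the bleomycin libraries alone, and 1 was lower. With the replicate number as a replicate block, 0 members and 1922 of all genes passed, against 2776. The cause of these differences was not tested.

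With single libraries left out, which also leaves fewer samples, 0 to 1 members were higher, 0 to 2 lower, and 1035 to 1894 of all genes passed (1894, 1852 and 1749 without PBS 1, 2 and 3, and 1046, 1035 and 1819 without bleomycin 1, 2 and 3). The large minus small difference ran from -0.14 to 0.006. With a library left out at least once, 27 of the 75 tested members changed direction, the largest of them by estimate Mrpl12 (-0.33, running from -0.58 to 0.01) and Mrpl14 (0.33, from -0.23 to 0.64), and Mrpl27 (0.23) ran from -0.28 to 0.59. Among those named by rule, Mrpl17 ran from -0.11 to 0.01, Mrps30 from -0.16 to 0.36 and Mrps21 from -0.30 to 0.43. Mrps18a ran from -0.37 to 0.20, Mrpl16 from -0.06 to 0.21 and Mrpl33 from -0.06 to 0.43. Of those named after their values were seen, Mrps12 ran from -0.89 to 0.84 and Mrps2 from -0.87 to 0.44. Equal medians turned Mrpl16 (-0.08), Mrpl33 (-0.06) and Mrps30 (-0.10), quantile normalization Mrpl16 (-0.23) and Mrps30 (-0.09), and equal sums Mrps21 (0.03). The top transcript turned Mrpl17 (0.19) and Mrps12 (0.08), and library weights turned Mrps12 (0.35).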
